A study of Columba livia with 12 samples.

Results

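The miR-30 family is a set of vertebrate microRNAs (miRNAs), short RNAs of which a few bases at the start, the seed, pair with messenger RNAs and lower their output. Its members here are the 8 rows of the count table whose name is miR-30 followed by a letter: cli-miR-30a-5p, cli-miR-30a-3p, cli-miR-30c-5p, cli-miR-30c-3p, cli-miR-30d-5p, cli-miR-30d-3p, cli-miR-30e-5p and cli-miR-30e-3p, written below without the species prefix cli-. They were chosen by name alone, out of 1039 mature names in the table. All 8 had enough counts to be tested, as did 345 names in all. A predicted entry in the table whose running number happens to be 30 is not a member.

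The livers came from domestic pigeons (Columba livia) of the white king breed, and small RNA of 3 birds was sequenced at each of 4 ages, 1 library a bird. The ages, with their labels, are 1 day (1d), then 14 days (14d), then 28 days (28d), and last 2 years (2y). The first 3 ages are squabs, which are nestlings, of mixed sex; the 2y birds are parents of both sexes, and the labels do not say which sex was sequenced. The series asks how liver miRNAs differ over development. No treatment or genetic change separates the groups. Age, rearing state, the sex make-up of each age and any difference in handling between ages thus cannot be told apart. For 1d replicates 2 and 3 the description gives an age of 2 or 3 days, whereas title and stage label say 1d, and the title was followed.

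A miRNA gene gives a hairpin with a 5p and a 3p arm, and usually 1 of them is kept as the working strand while the other is degraded. The 5p arms of the family carry the same seed and so are held to share most of their targets, whereas the 3p arms have a different one. In human, the genes of miR-30a, miR-30d and miR-30e lie on different chromosomes, so that these members can be made at different rates. There miR-30c is made from more than a single gene. In mouse liver miR-30c is known to lower lipoprotein output through the transfer protein gene Mttp, and in zebrafish miR-30a is needed for the bile ducts to form.

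Total counts lay between 3100273 and 9393075 per library. Levels below are CPM, counts scaled to a common library total after edgeR's TMM scaling, which corrects for a few miRNAs that take up much of a library; counts of different miRNAs are not corrected for length or ligation. The TMM factors moved with age: 1d libraries had 1.61 to 1.96, 14d libraries 1.30 to 1.56, 28d libraries 0.511 to 0.954 and 2y libraries 0.568 to 0.730. With the total count alone, the median log2 change of all tested miRNAs shifted by -0.31 for 14d against 1d, -1.01 for 28d against 14d, -1.31 for 28d against 1d, -1.31 for 2y against 1d and -1.03 for 2y against 14d. Ratios between members of 1 library do not depend on this scaling, and they are given first for that reason. The liver label was set against 5 hepatocyte miRNAs, of which 4 were in the table and miR-122-5p was not analysed here. The 4 held 17.0 to 21.3% of the counts in 1d libraries, 5.99 to 6.65% in 14d libraries, 18.2 to 26.4% in 28d libraries and 16.6 to 19.1% in 2y libraries. Most of this was miR-148a-3p, with 37345 to 497991 CPM. The others reached at most 15718 CPM (miR-101-3p), 709 CPM (miR-148a-5p) and 185 CPM (miR-194-5p). For 28d against 1d the log2 change was 1.75 for miR-148a-3p, 1.55 for miR-101-3p and 5.05 for miR-194-5p, but -2.38 for miR-148a-5p. No marker in the table, of hepatocytes or of the other cell types listed, was at 0 in any library. In whole tissue, fewer cells of a type and less RNA per cell cannot be told apart.

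The make-up of the family turned over at 14d. miR-30e-5p held 53.1, 56.1 and 53.3% of the family's counts in the 3 libraries of 1d (replicates 1 to 3 in order, here and below). At 14d it held 13.8, 14.6 and 15.8%. At 28d it held 49.0, 37.0 and 38.3%, and at 2y 40.7, 38.3 and 39.7%. All 3 libraries of 14d lay below every library of the other ages.

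By share, miR-30d-5p took the opposite course. Shares are parts of a common total, so a fall of miR-30e-5p by itself raises the share of miR-30d-5p. miR-30d-5p held 23.6, 22.0 and 28.1% of the family's counts at 1d and 62.7, 58.4 and 59.0% at 14d. At 28d it held 15.6, 23.0 and 24.4%, and at 2y 16.9, 22.5 and 21.6%. The 14d libraries were the highest, while the other 3 ages overlapped. The counts of miR-30d-5p over those of miR-30e-5p averaged 0.454 ± 0.0680 at 1d and 4.10 ± 0.399 at 14d, then 0.525 ± 0.179 at 28d and 0.515 ± 0.0888 at 2y (SD, n = 3 each). The more abundant of these arms was thus miR-30d-5p in all 3 libraries of 14d and miR-30e-5p in all 9 others.

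miR-30a-5p held 17.5, 15.6 and 14.7% at 1d and 15.0, 20.9 and 20.7% at 14d. It then held 29.1, 36.4 and 34.0% at 28d and 38.9, 36.3 and 35.7% at 2y. Every library of 28d and 2y lay above every library of 1d and 14d. miR-30c-5p was the least of the 5p arms, with 2.20 ± 0.538% at 1d and 3.68 ± 2.29% at 14d, followed by 2.26 ± 1.98% at 28d and 0.958 ± 0.0763% at 2y. The 4 rows of 3p arms made up the small remainder. All names of the table were also ranked by their mean share of the total count at each age. Among these 1039 names miR-30e-5p ranked 3rd at 1d and 10th at 14d, and 5th at both later ages.

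**Figure D1:**
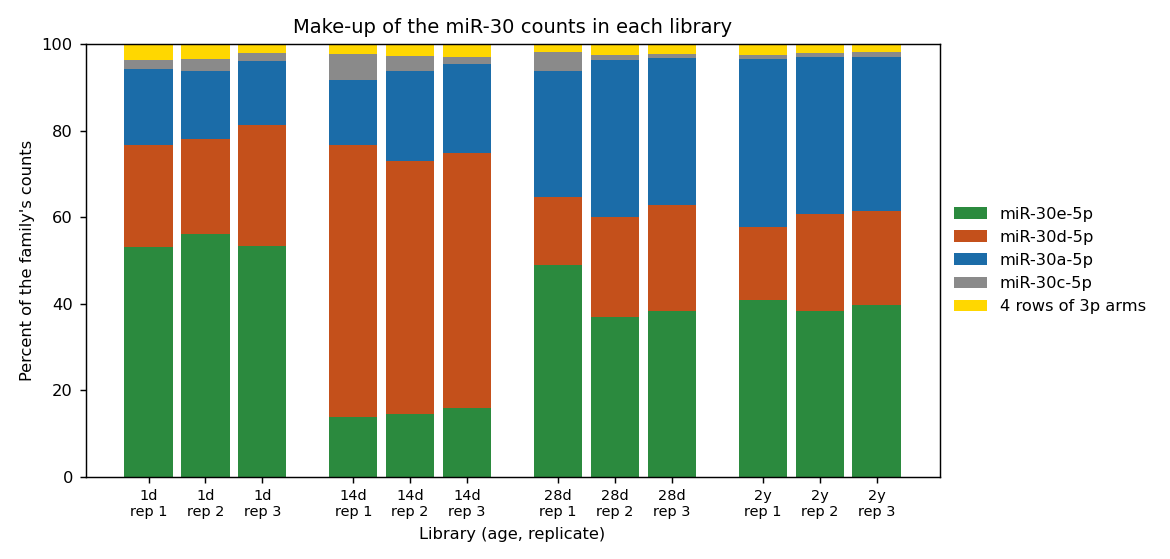
Percent of the family's counts (y axis) in each of the 12 libraries (x axis, by age and replicate), stacked by member. miR-30e-5p filled 53.1 to 56.1% of each 1d bar and 13.8 to 15.8% of each 14d bar, where miR-30d-5p filled 58.4 to 62.7%, and miR-30a-5p filled 29.1 to 38.9% of the bars at 28d and 2y.

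The order of the 5p arms within a library followed from these shares. At 1d it was miR-30e-5p, miR-30d-5p, miR-30a-5p and miR-30c-5p in 3 of 3 libraries. At 14d it was miR-30d-5p, miR-30a-5p, miR-30e-5p and miR-30c-5p in 3 of 3, with miR-30e-5p at 0.922, 0.697 and 0.763 of the count of miR-30a-5p. At 28d miR-30e-5p stood at 1.68, 1.02 and 1.13 times miR-30a-5p, and at 2y at 1.05, 1.06 and 1.11 times, so these neighbours were close to equal in 5 of the 6 libraries. miR-30d-5p came next at both of these ages and miR-30c-5p last.

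The members were then tested against miR-30a-5p, by an edgeR quasi-likelihood test in which the count of miR-30a-5p stands for the library size (344 other miRNAs, Benjamini-Hochberg adjusted). All 7 other members differed among the 4 ages, beside 64.8% of all miRNAs so tested, since a change of miR-30a-5p itself enters every ratio. Of them, miR-30a-3p and miR-30e-3p had nearly the same counts and may be 1 measurement. They are counted as 2 members here and in the pairs of ages below. miR-30e-5p was at 0.794 ± 0.115 times miR-30a-5p at 14d against 3.42 ± 0.339 times at 1d, a log2 change of -2.11 ± 0.24 (SE, adjusted p = 0.0001628). miR-30d-5p was at 3.28 ± 0.778 times miR-30a-5p at 14d against 1.56 ± 0.311 times at 1d (log2 change 1.08 ± 0.25, adjusted p = 0.01044). That call was lost without 1d replicate 1 or without 14d replicate 1, with adjusted p up to 0.05422. For 14d against 1d 4 of 7 members passed, 2 higher and 2 lower, beside 29.1% of all (14.2% higher and 14.8% lower). The median log2 change of all miRNAs so tested was 0.37 for this pair.

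From 14d on, the ratios moved again. miR-30d-5p was at 0.628 ± 0.0909 times miR-30a-5p at 28d against 3.28 ± 0.778 times at 14d (log2 change -2.38 ± 0.26, adjusted p = 0.0001173). Every library of 28d and 2y lay under 1 and every library of 1d and 14d above it. miR-30e-5p was at 1.28 ± 0.357 times miR-30a-5p at 28d against 0.794 ± 0.115 times at 14d (log2 change 0.68 ± 0.23, adjusted p = 0.03119), a call lost without any of 6 libraries, 28d replicate 1 among them, with adjusted p up to 0.1215, and with no filter (adjusted p = 0.132) or the replicate block (adjusted p = 0.05354). For 28d against 14d 5 of 7 members passed, 1 higher and 4 lower, beside 45.3% of all (4.07% higher and 41.3% lower). The median log2 change of all miRNAs so tested was itself -1.83 there, so much of the miR-30d-5p change is shared with them.

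For 2y against 1d 6 of 7 members were lower relative to miR-30a-5p, beside 43.9% of all (46.8% in either direction), and the median over all 344 was itself -1.67. miR-30e-5p was at 1.07 ± 0.0360 times miR-30a-5p at 2y against 3.42 ± 0.339 times at 1d (log2 change -1.68 ± 0.23, adjusted p = 0.0002668). miR-30d-5p was at 0.553 ± 0.102 times at 2y against 1.56 ± 0.311 times at 1d (log2 change -1.49 ± 0.26, adjusted p = 0.0009313). Both changes lay near the median of all miRNAs. Over the 7 members the log2 change ran from -4.71 (miR-30d-3p, edgeR adjusted p = 2.301e-06) to 0.13. For 28d against 1d 5 of 7 were lower, beside 33.7% of all (36.3% in either direction, 2.62% higher) and a median of -1.48. For 2y against 14d 5 of 7 were lower, beside 50.9% (54.1% in either direction) and a median of -2.05. For 2y against 28d 0 of 7 passed, as did 0 of 344; at an unadjusted p under 0.05 it was 1 member, miR-30d-3p, and 48 miRNAs.

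**Figure D2:**
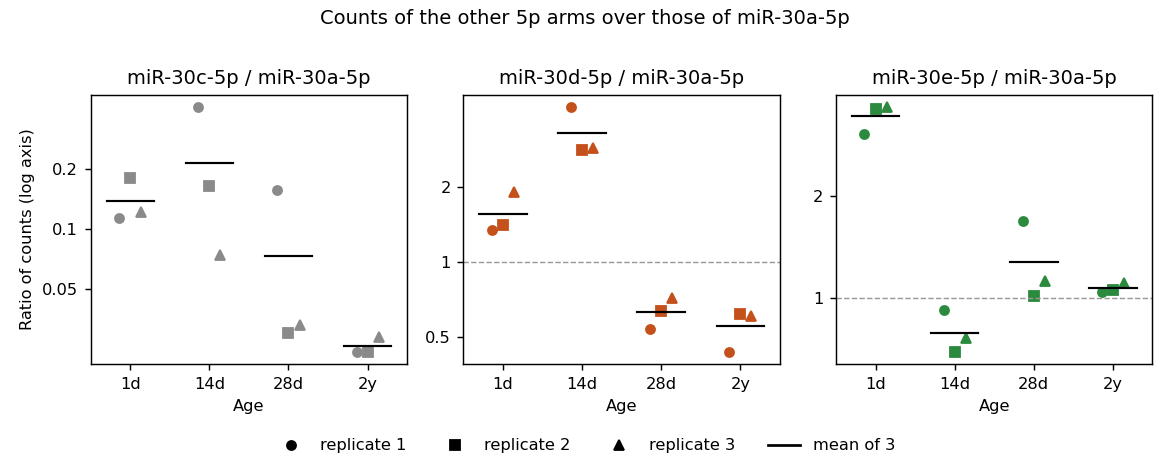
Counts of miR-30c-5p, miR-30d-5p and miR-30e-5p over those of miR-30a-5p (y axis, log scale) in each library by age (x axis); symbols mark the replicate, bars the mean of 3, and the dashed line a ratio of 1. The miR-30d-5p ratio was above 1 in every library of 1d and 14d and below 1 in every library of 28d and 2y, while that of miR-30e-5p was below 1 in the 3 libraries of 14d.

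On the CPM scale, 5 of the 8 rows differed among the 4 ages by the edgeR test, beside 45.2% of the 345 miRNAs tested: miR-30a-5p, miR-30d-5p, miR-30e-5p, miR-30c-3p and miR-30d-3p. Of the 4 members called for 14d against 1d, 2 were higher and 2 lower, beside 31.0% of all called (16.8% higher and 14.2% lower). The median log2 change of the 8 was 0.089, beside 0.49 over all tested.

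miR-30e-5p, whose human gene lies in an intron of NFYC, a transcription factor gene, fell at 14d. It had 19455, 10749 and 17362 CPM at 14d, against 53227, 52289 and 80516 CPM at 1d. The ages did not overlap, and the level was 3.91-fold lower at 14d (log2 change -1.97 ± 0.31, adjusted p = 0.001535). At 28d it had 101858, 60981 and 61292 CPM and was 4.71-fold higher than at 14d (log2 change 2.24 ± 0.31, adjusted p = 0.0006543), or 2.47-fold with the total count alone (adjusted p = 0.0351). Replicate 1 of 28d was the highest library of all, and without it the rise was still called. At 2y it had 59827, 64027 and 71136 CPM, 4.10-fold above 14d (adjusted p = 0.001038), a call lost with the total count alone (2.00-fold, adjusted p = 0.07285). Against 1d the 2y level did not pass (log2 change 0.068 ± 0.30, adjusted p = 0.8885); with the total count alone it was lower (log2 change -1.29, adjusted p = 0.03199).

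miR-30d-5p, a member known in mouse from insulin production in pancreatic islet cells, had 88096, 43153 and 64982 CPM at 14d, against 23609, 20464 and 42372 CPM at 1d. The lowest library of 14d was only just above the highest of 1d. The level was 2.27-fold higher at 14d (log2 change 1.18 ± 0.34, adjusted p = 0.02784). The call was lost without 1d replicate 1 or 2, 14d replicate 1 or 3 or 28d replicate 1 (adjusted p up to 0.1897), with the total count alone (1.81-fold, adjusted p = 0.07831) and with no filter on low counts (adjusted p = 0.2699). The test over 4 ages (adjusted p = 0.04614) was lost without any library but 1d replicate 3, with no filter (adjusted p = 0.1938) and with the replicate block (adjusted p = 0.06529). At 28d the CPM were 32412, 37934 and 38953, and at 2y 24874, 37558 and 38628. By edgeR with TMM scaling neither age passed against 14d (log2 change -0.84, adjusted p = 0.08945 at 28d, and -0.96, adjusted p = 0.05779 at 2y) or against 1d. Both were called lower than 14d by DESeq2 (adjusted p = 0.009115 at 28d and 0.01234 at 2y), with relative log expression scaling (0.04233 and 0.04403) and with the stricter filter (0.02298 and 0.0444), and 2y also without 1d replicate 3 (0.04125). With the total count alone miR-30d-5p was lower at 28d and at 2y than at 14d (3.79-fold and 3.98-fold) and than at 1d (2.09-fold and 2.20-fold), with adjusted p from 0.001449 to 0.02979.

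miR-30a-5p, a member known in human cells for lowering the autophagy protein Beclin, overlapped between 1d and 14d and was higher later. Its CPM were 17563, 14519 and 22160 at 1d and 21101, 15414 and 22753 at 14d, and the ages overlapped (adjusted p = 0.6981). At 28d they were 60557, 60068 and 54332, and at 2y 57206, 60651 and 63943. All 6 libraries of the older ages were above all 6 of the younger ones. The 28d level was 2.95-fold above 14d (adjusted p = 0.0006543) and 3.23-fold above 1d (adjusted p = 0.0003695). The 2y level was 3.07-fold above 14d (adjusted p = 0.0005829) and 3.35-fold above 1d (adjusted p = 0.0001985). With the total count alone the changes had the same direction at 1.43, 1.25, 1.49 and 1.30-fold, in the same order, and none passed (adjusted p 0.1261 to 0.4165), nor did the 4 ages together (adjusted p = 0.2549).

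**Figure D3:**
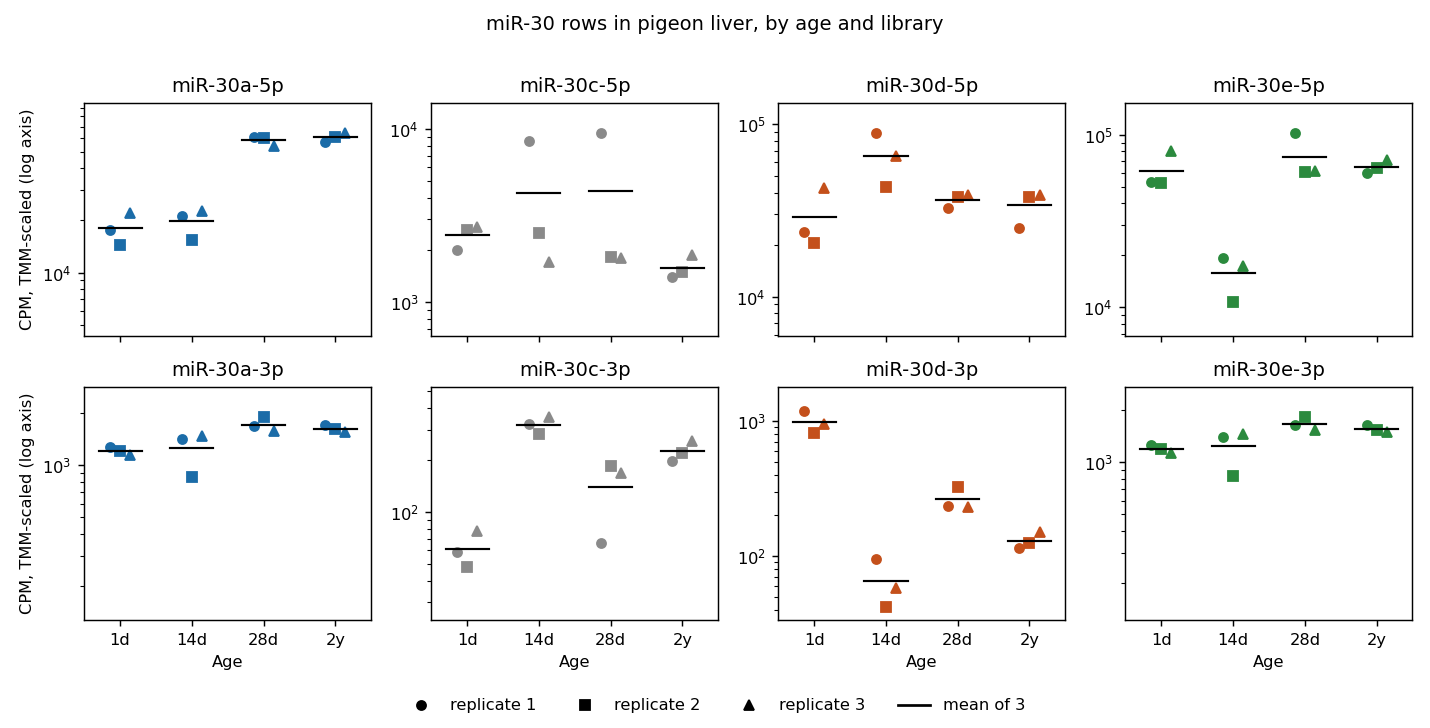
Level of each of the 8 rows (y axis, CPM after TMM scaling, log scale) in each library by age (x axis), with 5p arms above and 3p arms below; symbols mark the replicate and bars the mean of 3. miR-30e-5p was at 10749 to 19455 CPM at 14d and at 52289 CPM or more elsewhere, miR-30a-5p stepped up at 28d, and 14d replicate 1 and 28d replicate 1 stood apart in miR-30c-5p.

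miR-30c-5p had 2005, 2613 and 2696 CPM at 1d and 8568, 2518 and 1693 CPM at 14d. It had 9458, 1822 and 1801 CPM at 28d and 1396, 1481 and 1858 CPM at 2y. The first replicates of 14d and of 28d stood far above the others of their age, with a spread of 5.06-fold and 5.25-fold within the age, beside 1.34-fold at 1d and 1.33-fold at 2y. By edgeR with TMM scaling no pair of ages passed, nor did the 4 ages together (adjusted p = 0.2693), and the sign of the 28d against 1d change turned from 0.84 to -0.99 on the log2 scale without 28d replicate 1. Without 14d replicate 1 and 28d replicate 1 together, an alternative chosen after seeing the data, miR-30c-5p was called lower at 28d than at 1d (log2 change -0.82, adjusted p = 0.04338) and lower at 2y than at 1d (-0.72, adjusted p = 0.03678). The 2y against 1d change was also called with only the 6 libraries compared (-0.76, adjusted p = 0.01194), and 2y against 14d with the total count alone (5.53-fold lower, adjusted p = 0.04465). Relative to miR-30a-5p, miR-30c-5p was at 0.0260 ± 0.00268 at 2y against 0.139 ± 0.0360 at 1d (log2 change -2.42 ± 0.73, adjusted p = 0.0186), a call lost without 1d replicate 2 or any 2y library. The 4-age call of that ratio (adjusted p = 0.02083) was also lost without any 2y library. Against 14d, where it was 0.215 ± 0.172, the log2 change at 2y was -3.05 ± 0.75 (adjusted p = 0.006609) and -2.20 without 14d replicate 1. At 28d the ratio passed against 14d and 1d only without 28d replicate 1 (log2 change -2.76, adjusted p = 0.007042, and -2.13, adjusted p = 0.02294) or without it and 14d replicate 1 together (-1.90, adjusted p = 0.005855, and -2.13, adjusted p = 0.00267), among the alternatives run.

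Shares of the marker lists in these libraries follow. The shares are percent of the total count, here and in the rest of this paragraph, and are not TMM-scaled like the CPM. The TMM factor was 0.954 in 28d replicate 1, beside 0.516 and 0.511 in the other libraries of 28d. On the CPM scale the lists in 28d replicate 1 would thus stand lower relative to those libraries. In 28d replicate 1 the 5 leukocyte miRNAs held 4.27% of the counts, beside 0.930 and 1.91% in the other libraries of 28d. The 2 endothelial miRNAs held 4.09% there, beside 2.39 and 1.92%, and the 7 mesenchymal ones 7.58%, beside 13.0 and 13.2%. Not all mesenchymal members followed their list. In 28d replicate 1 miR-145-3p was at 1385 CPM, beside 406 and 534 CPM, and miR-214-3p at 135 CPM, beside 69.4 and 105 CPM. The 4 epithelial (biliary) miRNAs held 0.0951%, beside 0.0423 and 0.0341%. In 14d replicate 1 the epithelial list held 0.398%, beside 0.164 and 0.148% in the others of 14d. Within that list miR-205a-5p varied most, from 2.67 to 2250 CPM over the libraries, so it can carry the list's highest values. The other listed members reached at most 701 CPM (miR-200a-3p), 350 CPM (miR-200b-3p) and 188 CPM (miR-429-3p). The part of these lists in the miR-30c-5p values was not tested. Likewise the 14d libraries were those where miR-30d-5p was highest and miR-30e-5p lowest. There the hepatocyte list, mostly miR-148a-3p, held 5.99 to 6.65% of the counts and the leukocyte list 0.655 to 0.738%. The mesenchymal list was also lowest there, with 3.85 to 5.52% beside 7.58% or more elsewhere. It includes miR-143-3p, which reached 235592 CPM, and its members differed. At 14d miR-145-3p was lowest, with 48.1, 42.3 and 61.9 CPM against 64.7 CPM or more elsewhere. In contrast miR-214-3p was highest at 14d, with 599, 301 and 224 CPM against at most 135 CPM elsewhere. The epithelial (biliary) list was highest at 14d, with 0.148 to 0.398% beside at most 0.118%. The endothelial list held 2.12 to 2.69% at 14d, within the range of the other ages. The mesenchymal list, which includes miR-145-3p, held between 7.78 and 9.47% of the counts in the 1d libraries. It held between 7.58 and 13.2% in those of 28d and between 12.1 and 19.1% in those of 2y. The rise of miR-30a-5p is in CPM, where a lower TMM factor gives a higher level. That factor was at least 1.61 in 1d libraries, but no more than 0.954 in 28d libraries and 0.730 in 2y libraries. Scaled like the CPM, the list would thus stand higher in both older ages relative to 1d than its shares show. The part of this list in the rise of miR-30a-5p was not tested. The part of cell make-up in the 14d values was not tested.

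The 3p arms differed in how far they moved with their 5p arms. Over the 12 libraries r of log2 CPM between the arms was 0.822 for miR-30a and 0.539 for miR-30e, whose 3p counts may be shared, and -0.203 for miR-30c and -0.578 for miR-30d. miR-30d-3p, the 3p arm of miR-30d, had 95.6, 41.6 and 57.4 CPM at 14d, against 1198, 821 and 946 CPM at 1d. With no overlap between the ages it was 15.2-fold lower at 14d (log2 change -3.93 ± 0.35, adjusted p = 7.24e-05), and the log2 change was -4.51 without 14d replicate 1. At 28d it had 236, 322 and 232 CPM, 4.06-fold above 14d (adjusted p = 0.001247) and 3.75-fold below 1d (adjusted p = 0.001382). The call against 14d was lost with the total count alone (1.93-fold, adjusted p = 0.05979), while that against 1d held (10.2-fold lower). At 2y it had 114, 124 and 150 CPM, 7.62-fold below 1d (adjusted p = 0.0001329), or 20.2-fold with the total count alone. Its 2y level was 2.00-fold above 14d (adjusted p = 0.03607), a call lost without 14d replicate 2 or 3 or 2y replicate 2 or 3, with the replicate block (adjusted p = 0.05522), with no filter (adjusted p = 0.05999) and with the total count alone, where the log2 change was -0.038.

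miR-30c-3p had 323, 283 and 355 CPM at 14d, against 59.2, 47.9 and 77.5 CPM at 1d, 5.20-fold higher (log2 change 2.38 ± 0.38, adjusted p = 0.001535). At 2y it had 199, 220 and 258 CPM, 3.67-fold above 1d (adjusted p = 0.003362); with the total count alone this was 1.41-fold (adjusted p = 0.157). At 28d it had 65.9, 186 and 169 CPM, where replicate 1, high in the 5p arm, was low in the 3p arm and overlapped 1d. It was 2.28-fold above 1d (adjusted p = 0.03066) and 2.29-fold below 14d (adjusted p = 0.03419). The first call was lost without any of 5 libraries (adjusted p up to 0.1122) and with relative log expression scaling, no filter, a stricter filter, DESeq2, limma voom or only the 6 libraries compared (adjusted p 0.05211 to 0.348), and its direction turned with the total count alone (log2 change -0.38). The second was lost without any of 8 libraries (adjusted p up to 0.1047), with no filter (0.05327) and with only the 6 libraries compared (0.09953), and held with the total count alone (5.41-fold lower).

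miR-30a-3p and miR-30e-3p were almost the same count. miR-30a-3p was 1.07 to 4.90% above miR-30e-3p in every library, so the reads of these near-identical arms may be shared and both rows are uncertain; they may be 1 measurement. miR-30a-3p had 1282, 1203 and 1153 CPM at 1d and 1426, 860 and 1480 CPM at 14d, then 1677, 1896 and 1580 CPM at 28d and 1703, 1612 and 1559 CPM at 2y. By edgeR with TMM scaling neither row passed in any pair of ages or over the 4 ages (adjusted p = 0.1525 for miR-30a-3p and 0.1912 for miR-30e-3p). Other settings gave calls in both directions. DESeq2 called miR-30a-3p higher at 28d than at 14d (adjusted p = 0.03385) and over the 4 ages (adjusted p = 0.04302), and both rows higher at 2y than at 14d (adjusted p = 0.01249 for miR-30a-3p and 0.0312 for miR-30e-3p). The 2y against 14d change was also called by edgeR without 28d replicate 1 (adjusted p = 0.03843 and 0.04785, in the same order), and for miR-30a-3p with only the 6 libraries compared (adjusted p = 0.04418). Over the 4 ages the total count alone gave an adjusted p of 0.04405 for miR-30a-3p and 0.04141 for miR-30e-3p. With the total count alone both were lower at 28d and at 2y than at 1d (1.86 to 1.98-fold, adjusted p 0.02857 to 0.0453).

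Of the other comparisons of levels, 4 of 8 members passed for 28d against 14d (3 higher, 1 lower, beside 28.1% of all, with 15.7% higher and 12.5% lower), and DESeq2 called 6, beside 36.8% of all. For 28d against 1d 3 of 8 passed (2 higher, 1 lower, beside 29.6%, with 19.4% higher and 10.1% lower), and for 2y against 1d 3 of 8 (2 higher, 1 lower, beside 27.5%, with 14.5% higher and 13.0% lower). For 2y against 14d 3 of 8 passed, all 3 higher, beside 29.6% (13.3% higher and 16.2% lower). At an unadjusted p under 0.05 miR-30d-5p was also lower, which made 4 of 8 members, beside 147 of the 345 miRNAs. DESeq2 called 6 members, beside 39.1% of all. With the total count alone 0 were higher and 5 lower for 2y against 1d, beside 3.48% of all higher and 31.9% lower (35.4% in all). By the same scaling 0 were higher and 4 lower for 28d against 1d, beside 9 and 89 of the 345. For 28d against 14d 1 was higher and 2 lower, beside 18 and 98. For 2y against 14d 0 were higher and 3 lower, beside 14 and 124. Those 3 were miR-30c-5p, miR-30d-5p and miR-30c-3p, the last 2.95-fold lower (edgeR, adjusted p = 0.00182). For 2y against 28d 0 of 8 and 0 of 345 passed by edgeR. At an unadjusted p under 0.05 it was 1 member and 39 miRNAs, limma voom called 0 members, and DESeq2 called 1, miR-30d-3p, beside 5.22% of all. These pairs share libraries, so their counts are not independent of each other. Counts by DESeq2 or with the total count alone can include miR-30a-3p and miR-30e-3p, which may be 1 measurement.

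**Figure D4:**
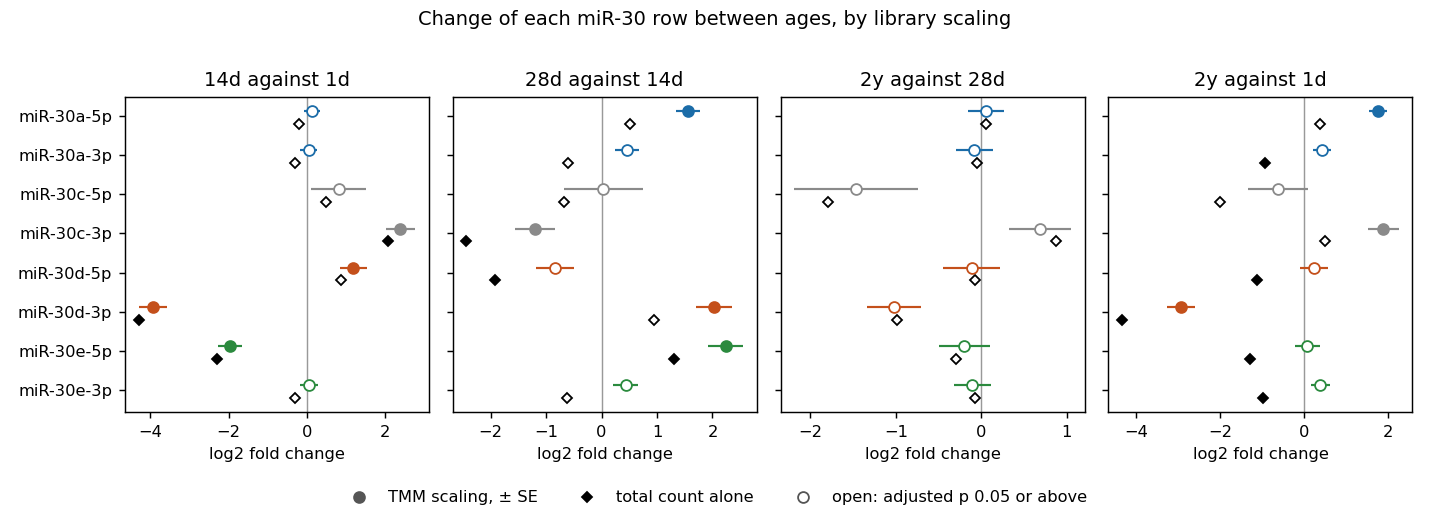
Log2 fold change (x axis) of each row (y axis) in 4 pairs of ages, later against earlier, with TMM scaling (circles, ± SE) and with the total count alone (diamonds); filled symbols passed an adjusted p of 0.05 and open ones did not. For 2y against 1d miR-30a-5p was at 1.74 with TMM and 0.38 with the total count, while miR-30d-3p was lower under both scalings, at -2.93 and -4.33.

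Arm balance, the 5p count over the 3p count of a hairpin in 1 library, needs no scaling. It was tested by limma on log2 ratios over the 103 names with both arms tested. For miR-30d the ratio was 922, 1036 and 1132 at 14d, against 19.7, 24.9 and 44.8 at 1d. Without overlap, the log2 change was 5.19 ± 0.31 (adjusted p = 3.642e-07), the lowest p of the 103 pairs and the 3rd largest change. The 3p arm was 0.0977 ± 0.0101% of both arms at 14d, against 3.62 ± 1.34% at 1d (SD, n = 3 each). It rested on 371 to 529 counts of the 3p arm per 14d library.

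At 28d the miR-30d ratio was 137, 118 and 168, below 14d (log2 change -2.88 ± 0.31, adjusted p = 5.459e-05) and above 1d (2.31 ± 0.31, adjusted p = 0.0002263). At 2y it was 217, 302 and 258, again below 14d (-2.00 ± 0.31, adjusted p = 0.0005306) and above 1d (3.19 ± 0.31, adjusted p = 1.457e-05). All 3 libraries of 2y lay above those of 28d, and the change of 0.88 ± 0.31 did not pass (adjusted p = 0.3188). None of the calls of miR-30d was lost by leaving out any 1 library.

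For miR-30e the balance moved the other way at 14d. The ratio was 13.8, 12.9 and 11.9 at 14d, against 42.1, 44.1 and 71.5 at 1d (log2 change -1.99 ± 0.27, adjusted p = 0.0002343). At 28d it was 61.9, 33.5 and 39.9 and at 2y 36.6, 41.7 and 47.9, both above 14d (1.76 ± 0.27, adjusted p = 0.0004959, and 1.70 ± 0.27, adjusted p = 0.0006128). Neither passed against 1d. For miR-30a the ratio was 13.7, 12.1 and 19.2 at 1d and 14.8, 17.9 and 15.4 at 14d, then 36.1, 31.7 and 34.4 at 28d and 33.6, 37.6 and 41.0 at 2y. The older ages lay above both younger ones by 1.09 to 1.34 on the log2 scale (adjusted p 0.0007541 to 0.00219).

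Both of these rest on the 3p counts that may be shared. When miR-30a and miR-30e were joined as 1 pair, an alternative chosen after seeing the data, the 14d ratio was lower than at 1d (log2 change -1.18, adjusted p = 0.003256) and higher at 28d and 2y than at 14d (1.43, adjusted p = 0.000767, and 1.45, adjusted p = 0.000742). The rise of miR-30a over 1d was not called for the joined pair at 28d (0.25, adjusted p = 0.4828) or at 2y (0.27, adjusted p = 0.4575).

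miR-30c had a ratio of 33.9, 54.6 and 34.8 at 1d and 26.6, 8.89 and 4.78 at 14d, then 143, 9.80 and 10.7 at 28d and 7.02, 6.74 and 7.19 at 2y. The 2y libraries were close together, and 28d replicate 1 stood apart with a ratio above any other. No change of miR-30c passed in the main limma fit (adjusted p over 4 ages 0.116). The 2y against 1d change (log2 change -2.52, adjusted p = 0.06454) passed with the stricter filter (0.03924) and with the replicate block (0.04497). Without 28d replicate 1 the 4 ages passed (adjusted p = 0.008345), as did 14d (log2 change -1.94), 28d (-1.97) and 2y (-2.52) against 1d, with adjusted p 0.01313, 0.02351 and 0.003106. Leaving out 14d replicate 1 as well, an alternative chosen after seeing the data, gave limma adjusted p of 0.0002677 over the 4 ages and 0.0001122 for 2y against 1d.

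**Figure D5:**
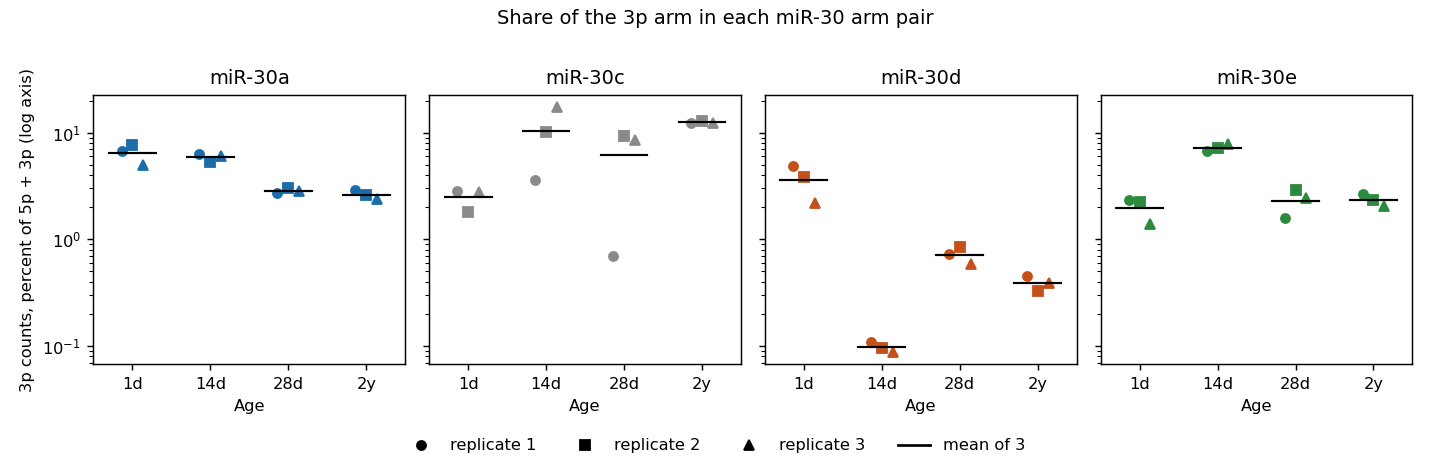
Share of the 3p arm in the counts of both arms (y axis, percent, log scale) for each arm pair, by library and age (x axis); symbols mark the replicate and bars the mean of 3. For miR-30d the 3p share was 0.0977% at 14d against 3.62% at 1d, while for miR-30e it was 7.24% at 14d against 1.97% at 1d, and 28d replicate 1 lay far below its age for miR-30c.

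In counts of arm pairs, 3 of 4 differed over the 4 ages, beside 44.7% of the 103 pairs. An exact permutation test of the F statistic over all 15400 partitions also called these, with adjusted p 0.01656 for miR-30a, 0.001672 for miR-30d and 0.03363 for miR-30e. It called 43 of the 103 pairs in all. The raw p of miR-30d, 6.5e-05, is the smallest that test can give. In all counts of pairs here, miR-30a and miR-30e rest on 3p counts that may be shared, so they may not be separate calls. For 14d against 1d 2 of 4 pairs passed, 1 higher and 1 lower, beside 29.1% (15.5% higher and 13.6% lower). For 28d against 14d it was 3 of 4, 2 higher and 1 lower, beside 38.8% (17.5% higher and 21.4% lower). For 28d against 1d 2 of 4 were higher, beside 12.6% higher of 30.1% that passed, and for 2y against 1d 2 of 4, beside 13.6% of 25.2%. For 2y against 14d 3 of 4 passed, 2 higher and 1 lower, beside 30.1% (12.6% higher and 17.5% lower). For 2y against 28d 0 of 4 and 0 of 103 passed, with 1 and 13 at an unadjusted p under 0.05.

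Other seed families are given by counts of rows called on the CPM scale. At 14d against 1d, where 16.8% of all miRNAs were higher and 14.2% lower, 4 of 14 let-7 rows were higher and 3 lower. In the same comparison 3 of 4 miR-29 rows and 1 of 4 miR-181 rows were higher, with no other call. At 2y against 1d, where 14.5% of all were higher and 13.0% lower, 1 let-7 row was higher and 3 lower, 4 miR-29 rows were higher and 1 miR-181 row was lower. The arm balance of 3 of 7 let-7 pairs, 1 of 2 miR-29 pairs and 2 of 2 miR-181 pairs passed for 14d against 1d, all with a higher 5p share, beside 1 higher and 1 lower of the 4 miR-30 pairs and 15.5% higher of all pairs.

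The miRNAs most like each 5p arm were found by Pearson's r of log2 CPM over the 12 libraries, among 101 miRNAs with a mean of at least 100 CPM. The libraries share their scaling and fall into ages, and r is a description. For miR-30a-5p these were miR-140-5p (r = 0.974), the mesenchymal marker miR-145-3p (0.949) and miR-29b-3p (0.944). miR-140-5p had 41.3 to 57.5 CPM in the 6 libraries of 1d and 14d and 136 to 229 CPM in those of 28d and 2y. For miR-30e-5p they were miR-19b-3p (0.971) and miR-20a-5p (0.935), both of the miR-17-92 group of growth-related miRNAs, and the leukocyte marker miR-142-3p (0.940). miR-142-3p had 469, 736 and 540 CPM at 1d and 162, 113 and 123 CPM at 14d, then 1480, 548 and 1005 CPM at 28d and 578, 575 and 595 CPM at 2y, so that it too was lowest in the 3 libraries of 14d.

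For miR-30d-5p they were the mesenchymal marker miR-214-3p (0.830), miR-181a-5p (0.827) and miR-125-5p (0.823). miR-181a-5p had 42947, 30504 and 39222 CPM at 14d and at most 22816 CPM in any other library. For miR-30c-5p the likeness was weaker, with miR-2954-3p (0.671), miR-100-5p (0.666) and miR-99-5p (0.591). In 28d replicate 1 miR-99-5p was at 3465 CPM, against 381 and 416 CPM in the other 28d libraries, and miR-100-5p at 34380 CPM, against 9678 and 8495 CPM. There miR-2954-3p was at 9614 CPM, against 3170 and 3313 CPM. Between 5p arms of the family, r was 0.603 for miR-30a-5p and miR-30e-5p, -0.0795 for miR-30a-5p and miR-30d-5p, and -0.559 for miR-30d-5p and miR-30e-5p.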

How the data were processed

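Small RNA was extracted with TRIzol from frozen liver, selected by size on a gel and sequenced single-end, per the labels' protocols. The submitters' processing notes name Bowtie, without a version; the build, the assigning program and the treatment of reads with several matches were not given in the sources used here. Per the file headers, the deposited values are raw read counts, 1 row per mature name, with 1 column for each of the 12 libraries, grouped by title.

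Counts were analysed in R 4.3.3 with edgeR 4.0.16: filterByExpr by age, TMM scaling, and a robust quasi-likelihood fit with 1 mean per age over all 12 libraries. Benjamini-Hochberg adjustment ran over all 345 tested miRNAs, with 0.05 as the threshold; adjusted p of levels and of ratios to miR-30a-5p are from edgeR. SE is the size of the log2 change over the root of its F statistic. Arm balance was the log2 of (5p count + 0.5)/(3p count + 0.5), fitted with limma 3.58.1. The steps were also run on simulated counts. Their spread between libraries was smaller than in these data, so that run does not measure how well the steps work here.

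At 95%, Wilson intervals of a member's share in 1 library were within 0.781% of the share for miR-30a-5p, miR-30d-5p and miR-30e-5p, within 3.97% for miR-30c-5p and the 3p arms of miR-30a and miR-30e, and within 12.0% for miR-30d-3p and miR-30c-3p. These intervals leave out all but counting error, as no molecular identifiers were read. Libraries of an age differed far beyond sampling noise (chi-square per degree of freedom 538.9 to 6501), so none is a repeat sequencing of another. The check cannot tell separate preparations of the same bird from separate birds.

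Alternatives were scaling by total count or by relative log expression, no filter or a stricter one (10 CPM in 3 libraries), DESeq2 1.42.0, limma voom, only the 6 libraries compared, an added count of 5 in arm ratios, a replicate block, and leaving out each library. Members, lists and tests were chosen with earlier results of these data known. All 8 members are named; the 3 most alike miRNAs of each 5p arm were taken by r. No mature sequence of the pigeon was used here.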

Additional observations from a re-analysis of the deposited data

How the results depend on the processing

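Among 133 single results, 69 passed as reported and 97 passed there or under an alternative; signs of the other 36 are not followed. Library scaling mattered most. With the total count alone 5 members were called for 2y against 1d. The log2 change turned negative for 28d against 14d in miR-30a-3p (-0.60). For 28d against 1d it did so in miR-30a-3p (-0.90), miR-30c-5p (-0.20), miR-30c-3p (-0.38), miR-30d-5p (-1.07) and miR-30e-3p (-0.91). For 2y against 1d it did so in miR-30a-3p (-0.95), miR-30d-5p (-1.14), miR-30e-5p (-1.29) and miR-30e-3p (-0.99), and for 2y against 14d in miR-30a-3p (-0.65), miR-30d-3p (-0.038) and miR-30e-3p (-0.69). The shift of the median of all miRNAs goes the same way. Small changes also crossed 0. miR-30d-5p for 28d against 1d was at -0.014 with relative log expression scaling and with DESeq2, -0.066 with no filter and -0.0085 with the stricter filter, and for 2y against 1d at -0.065 with no filter. miR-30e-5p for 2y against 1d was at -0.15 with relative log expression scaling and with DESeq2, -0.24 with no filter, -0.043 with the stricter filter, -0.047 with only the 6 libraries compared and -0.023 without 14d replicate 1 and 28d replicate 1 together. The same pair left out turned miR-30c-5p for 28d against 1d to -0.82, which passed (adjusted p = 0.04338), and joining miR-30a and miR-30e turned the miR-30a arm balance for 14d against 1d to -1.18. DESeq2 called 1 member for 2y against 28d and 6 for 2y against 14d. The cause was not tested.

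Leaving out 1 library at a time changed which members were called for 2y against 14d, as given for each member above. The number called was 3 with all libraries and 2 to 5 without 1 of them. The share of all miRNAs called was not taken for these fits, so that range has no background beside it. For 28d against 1d the log2 change then ranged from -0.041 to 0.56 in miR-30a-3p, -0.99 to 1.22 in miR-30c-5p, -0.087 to 0.73 in miR-30d-5p and -0.067 to 0.55 in miR-30e-3p. It ranged from -0.031 to 0.33 in miR-30e-5p for 2y against 1d, and from -0.022 to 0.31 in the miR-30a arm balance for 14d against 1d. The negative values for 28d against 1d came without 28d replicate 1. The calls for miR-30e-5p (14d against 1d), miR-30d-3p (14d, 28d and 2y against 1d) and the miR-30d arm balance were kept without any 1 library.

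Deviations from the age mean of same-numbered libraries of different ages had a median r of 0.013 (18 pairs, r -0.10 to 0.38, 6 over 0.1). Libraries with other numbers had a median of -0.031 (36 pairs, r -0.30 to 0.26, 7 over 0.1). The labels do not say that the numbers pair birds, and they were not taken to. With a replicate block no count of calls moved by over 1.5 times; miR-30d-5p over 4 ages (adjusted p = 0.06529), miR-30d-3p for 2y against 14d (0.05522) and miR-30e-5p relative to miR-30a-5p for 28d against 14d (0.05354) were no longer called, and the miR-30c arm balance for 2y against 1d was (0.04497). With 3 birds per age, changes of small size may be missed.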
